A study of Mus musculus with 6 samples.

Results

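The metallothionein genes Mt1, Mt2 and Mt3, their zinc-sensing regulator Mtf1 and the zinc exporter gene Slc30a1 were examined in mouse macrophages kept on an acoustic device. These 5 genes were picked by symbol out of 16108 genes with an expression value, with results of the acoustics-on against acoustics-off comparison already known, so their differences between the groups are given as a description and without a test. RAW264.7 is a mouse macrophage-like cell line, and 3 libraries were sequenced from cells on devices driven for 48 h at 18 V peak to peak and 5 kHz (acoustics on) and 3 from cells kept for 48 h on the same kind of device without acoustics (acoustics off). No engineered allele and no added agent is named for either group, and the dish control that the design names was not analysed here. Separate cultures are not named for the 3 libraries of a group, so every error and p-value rests on the spread between these libraries, which may be technical.

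Metallothioneins are small cysteine-rich proteins that hold zinc and copper, and also cadmium, in clusters bound by sulphur. When free zinc rises, the zinc-finger factor MTF1 binds metal response elements in the promoters of metallothionein genes and of Slc30a1, whose product (ZnT1) carries zinc out of the cell. Mt1 and Mt2 are used by most tissues and are induced in macrophages by metals, oxidants, glucocorticoids and inflammatory cytokines, while Mt3 is known mainly from brain.

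Mt1, Mt2 and Mt3 lie in the same orientation on chromosome 8 of the mouse build GRCm38, with Mt3 at 94152607 to 94154146, Mt2 at 94172664 to 94173568 and Mt1 at 94179082 to 94180327, all on the plus strand. The annotated ends leave 18.5 kb between Mt3 and Mt2 and 5.51 kb between Mt2 and Mt1. Mtf1 lies on chromosome 4 at 124802104 to 124849800 and Slc30a1 on chromosome 1 at 191906767 to 191913247. The coding sequences of the metallothioneins are shown because their cysteine codons, set in capitals, are what the family is known for, and because their likeness bears on how reads were assigned.
Mt1: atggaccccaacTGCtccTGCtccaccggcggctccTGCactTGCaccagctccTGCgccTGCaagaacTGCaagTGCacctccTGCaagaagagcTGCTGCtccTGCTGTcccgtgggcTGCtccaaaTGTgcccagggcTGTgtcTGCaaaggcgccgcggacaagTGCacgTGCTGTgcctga
Mt2: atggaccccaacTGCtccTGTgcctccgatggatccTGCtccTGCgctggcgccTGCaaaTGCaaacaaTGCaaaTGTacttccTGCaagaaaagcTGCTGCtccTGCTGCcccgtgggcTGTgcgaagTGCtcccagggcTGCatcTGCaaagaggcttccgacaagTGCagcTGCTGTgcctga
Mt3: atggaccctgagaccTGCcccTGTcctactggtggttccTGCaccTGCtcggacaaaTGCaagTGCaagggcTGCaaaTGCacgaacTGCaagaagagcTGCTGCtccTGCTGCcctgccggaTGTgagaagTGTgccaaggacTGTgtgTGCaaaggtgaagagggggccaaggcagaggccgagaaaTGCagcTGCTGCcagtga
The 3 coding sequences are read from GENCODE M21 transcripts of GRCm38 and each is spread over 3 exons. Mt1 and Mt2 have 61 codons before the stop, 20 of them for cysteine (32.8%), and Mt3 has 68, also with 20 for cysteine (29.4%). Identity over the aligned coding bases was 79.6% between Mt1 and Mt2, 66.2% between Mt1 and Mt3 and 67.6% between Mt2 and Mt3. No run of 31 bases was shared between the transcripts of any of the 3 pairs (0 in each).

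The DNA upstream of the start site is shown for the 3 metallothionein genes and Slc30a1, because metal response elements are read from it. Each window has 236 bases of GRCm38.p6 on the plus strand, taken from RefSeq, and ends before the first annotated exon: Mt1 chr8:94178839-94179074, Mt2 chr8:94172368-94172603, Mt3 chr8:94152357-94152592 and Slc30a1 chr1:191906531-191906766. Capitals mark each match, on either strand, to TGCACNC or TGCGCNC, the letters searched for as the core of a metal response element.
Mt1: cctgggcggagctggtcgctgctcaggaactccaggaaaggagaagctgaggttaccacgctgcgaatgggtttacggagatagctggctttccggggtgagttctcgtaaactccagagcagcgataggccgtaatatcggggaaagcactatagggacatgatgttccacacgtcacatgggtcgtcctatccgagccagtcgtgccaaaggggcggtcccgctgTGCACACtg
Mt2: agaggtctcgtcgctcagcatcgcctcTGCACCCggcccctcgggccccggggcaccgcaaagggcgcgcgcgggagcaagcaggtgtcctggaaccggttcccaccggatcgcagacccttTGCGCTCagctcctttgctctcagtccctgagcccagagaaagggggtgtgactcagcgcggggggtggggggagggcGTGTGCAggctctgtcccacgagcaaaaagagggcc
Mt3: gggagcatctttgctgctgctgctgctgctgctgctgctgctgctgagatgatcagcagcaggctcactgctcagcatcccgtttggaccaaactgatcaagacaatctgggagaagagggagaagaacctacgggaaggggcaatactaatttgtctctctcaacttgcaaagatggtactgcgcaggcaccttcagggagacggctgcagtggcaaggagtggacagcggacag
Slc30a1: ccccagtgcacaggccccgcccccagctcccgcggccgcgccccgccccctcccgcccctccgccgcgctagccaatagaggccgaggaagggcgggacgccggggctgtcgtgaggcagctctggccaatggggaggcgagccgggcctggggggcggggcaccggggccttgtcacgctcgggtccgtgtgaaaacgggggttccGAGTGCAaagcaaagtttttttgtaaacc
The Mt2 window held 3 matches, which begin 223, 128 and 50 bases before the RefSeq start site. The Mt1 window held 1, at 23 bases, and the Slc30a1 window held 1, at 43 bases, whereas the windows of Mt3 and Mtf1 held 0. The Mt1 window ends before the most upstream annotated start. Mt1 has 3 annotated transcripts, the longest of 1085 bases and the one shown above of 549. Where their starts differ, bases just before a later start were not searched. The Mt1 counts therefore hold for this window alone and do not compare its promoter with that of Mt2. Among 32851 windows of the same length across mouse genes, 20.1% had at least 1 match and 1.12% had at least 3. A search on both strands for TGACNNNGC, the core of the element read by the oxidant factor NRF2, gave 1 match in the Mt2 window (TGACTCAGC, 79 bases before the start site), 1 in the Slc30a1 window (82 bases) and 0 in the windows of Mt1, Mt3 and Mtf1. This second motif was found in 9.48% of the windows, and its Mt2 match does not overlap a metal response match. A match is only a match of letters and was not tested for binding.

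Mt2 and Mt3 transcripts stood higher in all 3 acoustics-on libraries than in any acoustics-off library, Slc30a1 was slightly higher, and Mt1 and Mtf1 overlapped between the groups. Values are FPKM, fragments per kilobase of transcript scaled to the mapped fragments of the library, as deposited by the authors. Log2 differences are acoustics on minus off of log2(FPKM + 1), a scale on which changes of low genes come out too small, and each has the standard error (SE) of a limma fit over all 11664 genes tested.

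Mt1, the most abundant of the 5 by group mean, stood at 237.8, 247.1 and 225.5 FPKM in the acoustics-off libraries and at 730.1, 217.0 and 244.7 FPKM in the acoustics-on libraries (replicates 1, 2 and 3). The first acoustics-on library alone was high, at 3.08 times the acoustics-off mean, while the others were at 0.92 times it, below all acoustics-off values, and at 1.03 times it, among them. The group means were 236.8 ± 10.8 and 397.3 ± 288.6 FPKM (SD, n = 3), and the log2 difference was 0.51 (SE 0.44). Without acoustics-on replicate 1 it was -0.04, so both the size and the sign of the Mt1 difference rest on that library.

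Mt2, the other widely used metallothionein, stood at 90.0, 99.4 and 98.5 FPKM without acoustics and at 581.0, 115.3 and 256.0 FPKM with acoustics. All 3 acoustics-on libraries were above all 3 acoustics-off libraries, but by unequal amounts, 6.05, 1.20 and 2.67 times the acoustics-off mean. The group means were 96.0 ± 5.19 and 317.4 ± 238.8 FPKM (SD, n = 3), a ratio of 3.31, and the log2 difference was 1.42 (SE 0.52). Leaving out acoustics-on replicate 1 lowered it to 0.84, and leaving out replicate 2 raised it to 2.00.

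Mt3 was near the limit of detection without acoustics, at 0.23, 0.54 and 0.55 FPKM, and was at 19.9, 2.29 and 8.39 FPKM with acoustics. The lowest acoustics-on library was still 5.18 times the acoustics-off mean, and the others were 45.1 and 19.0 times it. The means were 0.44 ± 0.18 and 10.2 ± 8.97 FPKM (SD, n = 3), a ratio of 23.1, and the log2 difference was 2.59 (SE 0.60). From the authors' mean normalised count, the acoustics-off values correspond to about 3.04, 7.18 and 7.29 normalised reads, 17.5 in all, for which counting error alone is 23.9%. The acoustics-on values correspond to about 263.3, 30.2 and 110.8 reads, so counting error is larger on the acoustics-off side, while the spread between libraries is larger on the acoustics-on side.

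Mtf1, the zinc-sensing factor, stood at 8.11, 10.4 and 8.49 FPKM without acoustics and at 5.43, 9.10 and 11.2 FPKM with acoustics. The groups overlapped, with both the lowest and the highest of the 6 values among the acoustics-on libraries. The means were 8.997 ± 1.22 and 8.56 ± 2.90 FPKM (SD, n = 3), and the log2 difference was -0.11 (SE 0.25). It turned positive (0.16) without acoustics-on replicate 1.

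Slc30a1, the exporter, stood at 3.98, 3.76 and 3.76 FPKM without acoustics and at 4.39, 4.76 and 5.60 FPKM with acoustics. The groups did not overlap, and here the first acoustics-on library was the lowest of its group. The means were 3.83 ± 0.13 and 4.92 ± 0.62 FPKM (SD, n = 3), a ratio of 1.28 and a log2 difference of 0.29 (SE 0.13).

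**Figure D1:**
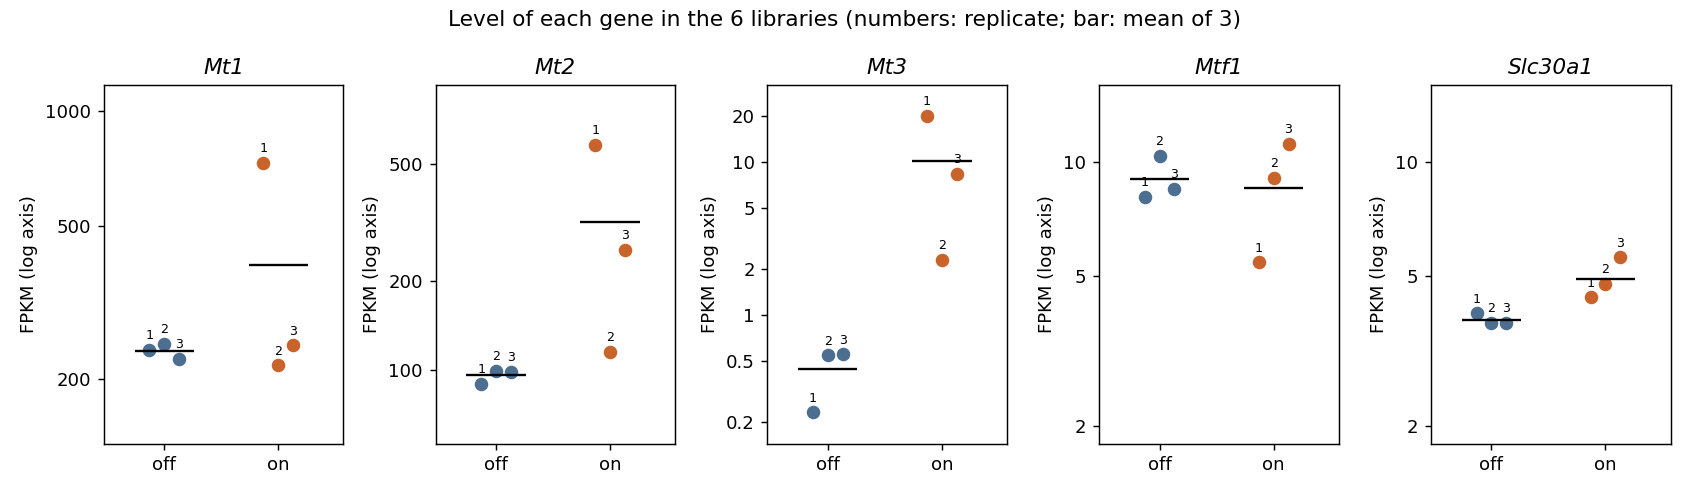
Level of Mt1, Mt2, Mt3, Mtf1 and Slc30a1 in each library, in FPKM on log axes that differ between panels, with blue points for acoustics off, orange points for acoustics on, the replicate number above each point and a bar at the mean of 3. Mt2, Mt3 and Slc30a1 have every orange point above every blue one, and Mt1 has 1 high orange point, replicate 1 at 730.1 FPKM.

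All 5 genes passed the filter on low values (at least 0.5 FPKM in at least 3 libraries), Mt3 through its acoustics-on libraries and 2 of the acoustics-off ones. With limma and Benjamini-Hochberg adjustment, 0 of the 5 were called higher at an adjusted p under 0.05, against 1.5% of all genes tested, and 0 were called lower, against 0.574%. At an unadjusted p under 0.05 the same fit had 2 higher and 0 lower, against 10.5% and 9.16% of all genes tested. In the authors' deposited table, 2 were called higher (Mt2 and Mt3) against 5.08% of the genes with an adjusted p there, and 0 were called lower against 2.49%. Groups did not overlap for 3 genes with acoustics on above off, where 17.1% of all genes tested did the same, and for 0 genes with acoustics on below off, where 17.7% did. Because the genes were chosen with this comparison known, nothing is read from these counts.

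The log2 fold changes in the authors' deposited table were 4.53 for Mt3 (SE 0.77), 1.73 for Mt2 (SE 0.48) and 0.75 for Mt1 (SE 0.43). For Slc30a1 the authors' deposited table gave 0.36 (SE 0.17) and for Mtf1 it gave -0.07 (SE 0.29). The order of the 5 genes is the same in both sets of values, and Mt3 differs most between them.

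In level per length, the order without acoustics was Mt1, Mt2, Mtf1, Slc30a1 and Mt3, and the 3 libraries of neighbouring genes did not overlap at any step. With acoustics the means ran Mt1, Mt2, Mt3, Mtf1 and Slc30a1, and the spreads of Mt1 and Mt2, and those of Mt3, Mtf1 and Slc30a1, overlapped. Mt1 was above 97.3% to 97.5% of all genes in the table in the acoustics-off libraries and Mt2 above 93.5% to 93.9%. In the acoustics-on libraries Mt2 was above 94.5% to 98.5% of genes. Mt3 was above 22.5% to 29.3% of genes without acoustics and above 39.8% to 74.6% with acoustics.

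The balance between the metallothioneins differed between the groups in every library. Mt1 FPKM divided by Mt2 FPKM was 2.64, 2.49 and 2.29 without acoustics and 1.26, 1.88 and 0.96 with acoustics. The 3 acoustics-on ratios were all below the 3 acoustics-off ratios, although Mt1 itself overlapped between the groups. The mean ratio was 2.47 ± 0.18 without and 1.36 ± 0.47 with acoustics (SD, n = 3). Of the summed FPKM of the 3 genes, Mt2 made up 27.4%, 28.6% and 30.4% without acoustics and 43.6%, 34.5% and 50.3% with acoustics. Mt3 made up 0.070%, 0.157% and 0.170% without and 1.50%, 0.685% and 1.65% with acoustics, so it stayed a small part of the total. The sum was 328.1, 347.1 and 324.6 FPKM without acoustics and 1331, 334.7 and 509.1 FPKM with acoustics, and the second acoustics-on library lay inside the acoustics-off range.

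Across the 6 libraries, on the log2(FPKM + 1) scale, Mt2 and Mt3 went together most closely (Pearson r 0.97), followed by Mt1 and Mt2 (0.87) and Mt1 and Mt3 (0.76). Mt1 and Mtf1 ran opposite (r -0.84), and Mt1 and Slc30a1 showed next to no relation (r 0.04). These are descriptions over 6 libraries that share the group difference and the same high library, and they carry no test.

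The first acoustics-on library stood apart by transcript length, and the metallothioneins are short. Among 451 tested genes whose longest transcript is under 1000 bases, the median distance from the acoustics-off mean, in log2, was 0.77 in the first acoustics-on library, 0.21 in the second and -0.07 in the last. Among 2253 genes over 5000 bases it was -0.57, -0.19 and 0.01. The longest annotated transcript has 1085 bases for Mt1, 511 for Mt2, 536 for Mt3, 7631 for Mtf1 and 5244 for Slc30a1. Mt1, Mt2 and Mt3 were above their acoustics-off means in that library and Mtf1 below, as the medians of short and long genes were, and Slc30a1 was above despite its length. The metallothioneins were above the short-gene median there, with log2 differences from the acoustics-off mean of 1.62 for Mt1, 2.59 for Mt2 and 3.87 for Mt3. Mtf1 was at -0.63, close to the long-gene median, and Slc30a1 at 0.16 was above it.

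After a correction of each library for transcript length and GC content (a loess curve over all genes), the log2 difference was 0.21 for Mt1, 1.05 for Mt2 and 2.42 for Mt3. Corrected Mt2 levels were 113.4, 116.7 and 122.8 FPKM without and 370.6, 116.4 and 339.4 FPKM with acoustics, so the groups then overlapped through acoustics-on replicate 2. Corrected Mt3 levels were 0.29, 0.64 and 0.71 FPKM without and 12.2, 2.37 and 11.4 FPKM with acoustics, still without overlap. Slc30a1 was higher after the correction, with a log2 difference of 0.46, and that of Mtf1 was positive at 0.20. Corrected Slc30a1 levels were 3.79, 3.67 and 3.57 FPKM without and 6.20, 4.92 and 5.31 FPKM with acoustics. Acoustics-on replicate 1, the lowest of its group for Slc30a1 before the correction, was then the highest. The Mt1 to Mt2 ratio of corrected levels was 2.51, 2.41 and 2.16 without and 1.45, 1.82 and 0.84 with acoustics, again without overlap. With the correction and without acoustics-on replicate 1, the differences were -0.17 for Mt1, 0.75 for Mt2, 2.07 for Mt3, 0.26 for Mtf1 and 0.39 for Slc30a1. The part of length in the Mt1 and Mt2 differences was not tested further.

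**Figure D2:**
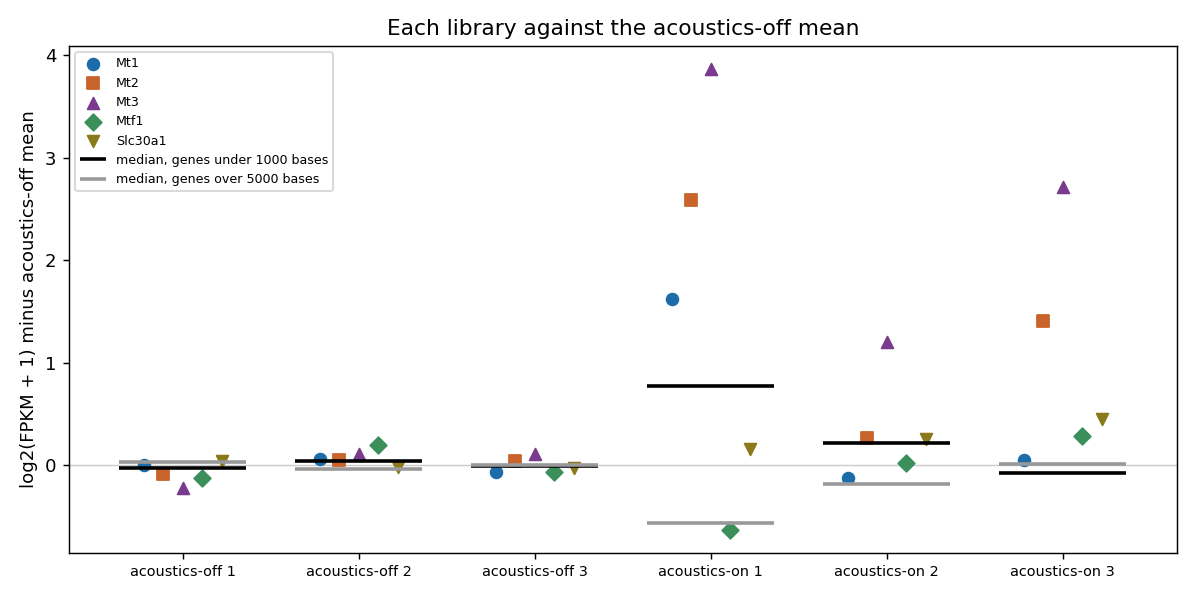
Log2(FPKM + 1) of each gene in each library minus its acoustics-off mean, for the 3 acoustics-off and 3 acoustics-on libraries, with black and grey bars at the median of genes under 1000 and over 5000 bases. In acoustics-on replicate 1 the short-gene median is at 0.77 and the long-gene median at -0.57, Mt1, Mt2 and Mt3 lie above both, and in replicate 3, where both medians are near 0, Mt2 and Mt3 remain high and Mt1 is at 0.05.

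Other genes of zinc and metal handling were described from 5 lists (zinc exporters, zinc importers, other targets of MTF1 or zinc, copper and cadmium handling, and metal withholding in immunity) with 42 genes, of which 35 were in the table and 31 passed the filter. Of the 31, Lcn2, S100a8 and Pgf were under 0.5 FPKM in every acoustics-off library and passed the filter through the acoustics-on libraries alone, so they could only differ upwards and are given as values with no p. With limma, 2 of the 31 were called higher (Slc39a2, and Lcn2 with that limit) and 0 lower, beside backgrounds of 1.5% and 0.574%. At an unadjusted p under 0.05 there were 5 higher, Lcn2, S100a8 and Pgf among them, and 0 lower, where the shares over all genes were 10.5% and 9.16%. The authors' deposited table called 4 higher, these 3 genes and Slc39a2, and 0 lower, where its shares were 5.08% and 2.49%. Because these 3 could only differ upwards, nothing is read from the counts that include them. The median log2 difference of the 31 genes was 0.0049, beside -0.03 for all genes tested. It includes these 3 genes, so it is not read as a result either.

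Zinc exporters move zinc out of the cytosol, to the outside or into organelles. Of 9 exporters other than Slc30a1, 5 were tested and 0 passed in either direction by limma, at an unadjusted p under 0.05 or in the authors' deposited table (0 in each), with a median log2 difference of -0.30. With backgrounds of 10.5% higher and 9.16% lower at an unadjusted p, a count of 0 among 5 genes says little. Slc30a5, which loads zinc into the secretory pathway, was at 27.4, 27.8 and 29.0 FPKM without and 13.3, 27.7 and 27.6 FPKM with acoustics. Of the 6 libraries, the first acoustics-on one alone was low. Slc30a7, another exporter of the secretory pathway, was at 9.96, 15.2 and 11.7 FPKM without and 5.00, 8.64 and 12.4 FPKM with acoustics, with overlap. The Slc30a1 difference of 0.29 was therefore 1 of 3 positive ones among the 6 exporters that passed the filter.

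Zinc importers bring zinc into the cytosol. Of 14 importers, 10 were tested, with a median log2 difference of -0.06. Limma called 1 higher, Slc39a2, a ZIP importer of the plasma membrane, and 0 lower, beside 1.5% and 0.574% of all genes tested. At an unadjusted p under 0.05 there were 1 higher and 0 lower, beside 10.5% and 9.16%. The authors' deposited table called 1 higher, Slc39a2, and 0 lower, beside 5.08% and 2.49%. A count of 1 among 10 genes says little about importers as a set. Slc39a2 was at 1.399, 1.61 and 1.52 FPKM without and 11.5, 4.88 and 10.2 FPKM with acoustics. Every acoustics-on library was above every acoustics-off library, with means of 1.51 ± 0.11 and 8.86 ± 3.52 FPKM (SD, n = 3) and a log2 difference of 1.90 (SE 0.28, limma adjusted p = 0.0248). Like Mt2 and Mt3, Slc39a2 was highest in replicate 1 and lowest in replicate 2 of the acoustics-on libraries. The limma adjusted p of Slc39a2 was 0.127 to 0.137 without 1 of the acoustics-off libraries and 0.085 without acoustics-on replicate 3, past the threshold in none of these.

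Slc39a1, an abundant plasma membrane importer, was at 121.3, 120.3 and 120.9 FPKM without and 111.3, 125.6 and 105.3 FPKM with acoustics. Its log2 difference was -0.09 (limma adjusted p = 0.68), and the groups overlapped. Slc39a10, another importer of the plasma membrane, was at 29.6, 28.0 and 29.4 FPKM without and 10.7, 25.0 and 28.3 FPKM with acoustics (log2 difference -0.53, limma adjusted p = 0.38). Slc39a14, which also carries iron and manganese, was at 9.11, 7.10 and 6.71 FPKM without and 4.82, 8.53 and 10.5 FPKM with acoustics, with overlap.

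Of 6 further genes reported as targets of MTF1 or of zinc, all were tested, and 0 were called higher or lower, with a median log2 difference of 0.19. At an unadjusted p under 0.05 there were 2 higher, Pgf among them, and 0 lower (10.5% and 9.16% of all genes). The authors' deposited table called 1 higher, Pgf, where 5.08% of all genes were. Pgf passed the filter through the acoustics-on libraries alone, so its part in these counts is not read as a result. The median of 0.19 includes Pgf and is not read as a result either. Pgf, a growth factor of the VEGF family, was at 0.29, 0.21 and 0.11 FPKM without and 0.67, 1.62 and 1.91 FPKM with acoustics. Gclc, the catalytic subunit of the enzyme that starts glutathione synthesis, was at 21.7, 23.4 and 23.1 FPKM without and 25.1, 38.4 and 53.0 FPKM with acoustics (log2 difference 0.69, limma adjusted p = 0.21). Gclc was highest in acoustics-on replicate 3 and Mt1 in replicate 1, so these genes did not share an order of libraries.

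Copper and cadmium handling genes, which include copper pumps, copper chaperones and the metal importer Slc11a2, had 8 members with 7 tested, 0 called higher or lower and a median log2 difference of 0.03. Their counts at an unadjusted p under 0.05 and in the authors' deposited table were also 0 in both directions, beside 10.5% and 9.16% of all genes at an unadjusted p and 5.08% and 2.49% in that table, which in 7 genes says little.

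Genes that withhold zinc, manganese or iron in immunity had 5 members with 3 tested, of which Lcn2 and S100a8 passed the filter through the acoustics-on libraries alone, so no call is read from this list. Lcn2, which binds bacterial iron carriers, was at 0.07, 0.25 and 0.04 FPKM without and 2.27, 5.61 and 9.19 FPKM with acoustics. All acoustics-on values were above all acoustics-off values, and replicate 1, where Mt1, Mt2 and Mt3 peaked, was the lowest of them. S100a8, a subunit of the zinc-binding protein calprotectin, was at 0.18, 0.18 and 0.09 FPKM without and 1.52, 6.97 and 6.62 FPKM with acoustics, also lowest in replicate 1 of the acoustics-on libraries.

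The heat shock and haem oxygenase genes, known to respond to cadmium as metallothioneins do, had 5 members, all tested. Limma called 1 higher, Hmox1, and 0 lower, beside 1.5% and 0.574% of all genes tested. At an unadjusted p under 0.05 there were 2 higher and 0 lower, beside 10.5% and 9.16%. The authors' deposited table called 1 higher, Hmox1, and 0 lower, beside 5.08% and 2.49%. Acoustics on was above off without overlap for 2 of the 5 and below for 1, beside 17.1% and 17.7% of all genes tested. Hmox1, which breaks down haem, was at 156.0, 169.5 and 172.2 FPKM without and 1092, 424.6 and 658.0 FPKM with acoustics. The means were 165.9 ± 8.72 and 725.0 ± 338.9 FPKM (SD, n = 3), and the log2 difference was 2.02 (SE 0.32, limma adjusted p = 0.031). Its acoustics-on libraries came in the order of Mt2 and Mt3, with replicate 1 highest and replicate 2 lowest, but its replicate 2 stood further above the acoustics-off libraries than that of Mt2. The limma adjusted p of Hmox1 was 0.141 to 0.163 without 1 of the acoustics-off libraries and 0.091 without acoustics-on replicate 3.

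**Figure D3:**
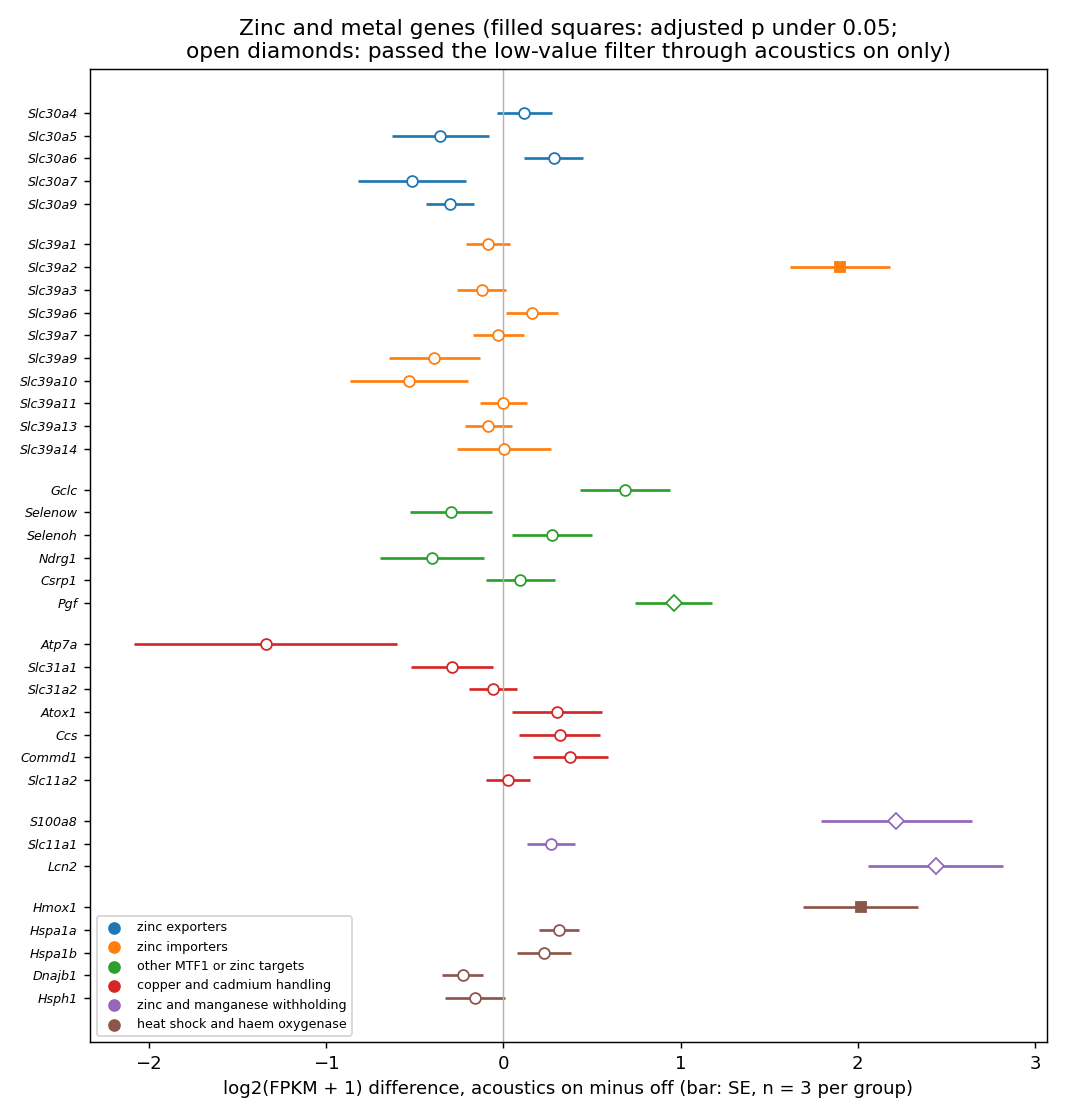
Log2(FPKM + 1) difference of each tested gene of the zinc and metal lists, acoustics on minus off, with SE bars (n = 3 per group) and colours for the lists. Filled squares, Slc39a2 (1.90) and Hmox1 (2.02), passed limma's adjusted p under 0.05, open diamonds (Pgf, S100a8 and Lcn2) passed the low-value filter through the acoustics-on libraries alone, and the zinc exporters lie on both sides of 0.

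Genes next to the metallothioneins were examined to see how the surrounding stretch of chromosome 8 behaved. Of 33 other genes annotated within 500 kb of the cluster, 18 were in the table and 14 were tested. Of these, 0 were called higher or lower by limma, 1 was higher at an unadjusted p under 0.05 (10.5% of all genes), and the authors' deposited table called 1, Cpne2, higher (5.08% of all genes), so these counts are near the background. Their median log2 difference was -0.05, beside 2.59 for Mt3, 1.42 for Mt2 and 0.51 for Mt1. Nup93, a nuclear pore gene on the Mt1 side, was at 26.3, 26.8 and 26.8 FPKM without and 21.7, 28.5 and 32.7 FPKM with acoustics, and overlapped. Bbs2, on the Mt3 side, was at 2.17, 2.10 and 2.33 FPKM without and 2.87, 1.89 and 2.13 FPKM with acoustics, and also overlapped. Cpne2 was at 16.2, 16.5 and 15.0 FPKM without and 44.6, 24.6 and 40.0 FPKM with acoustics (log2 difference 1.10, SE 0.22, limma adjusted p = 0.063), and like Mt2 it was lowest in replicate 2 of the acoustics-on libraries.

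An antisense gene, Gm45774, covers 355 exonic bases of Mt2 on the other strand. It was at 0.68, 0.66 and 0.42 FPKM without and 1.34, 0.43 and 0.95 FPKM with acoustics, with the same order of acoustics-on libraries as Mt2. Whether strand was used in the counting is not given in the sources used here. Whether reads of Gm45774 and of that stretch of Mt2 were told apart is therefore unknown. Gm45774 was at most 1.34 FPKM in any library, where Mt2 was at 90.0 FPKM or more, so Gm45774 is the gene whose value such reads could change most. Mt4, the remaining gene of the cluster, was not analysed here.

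**Figure D4:**
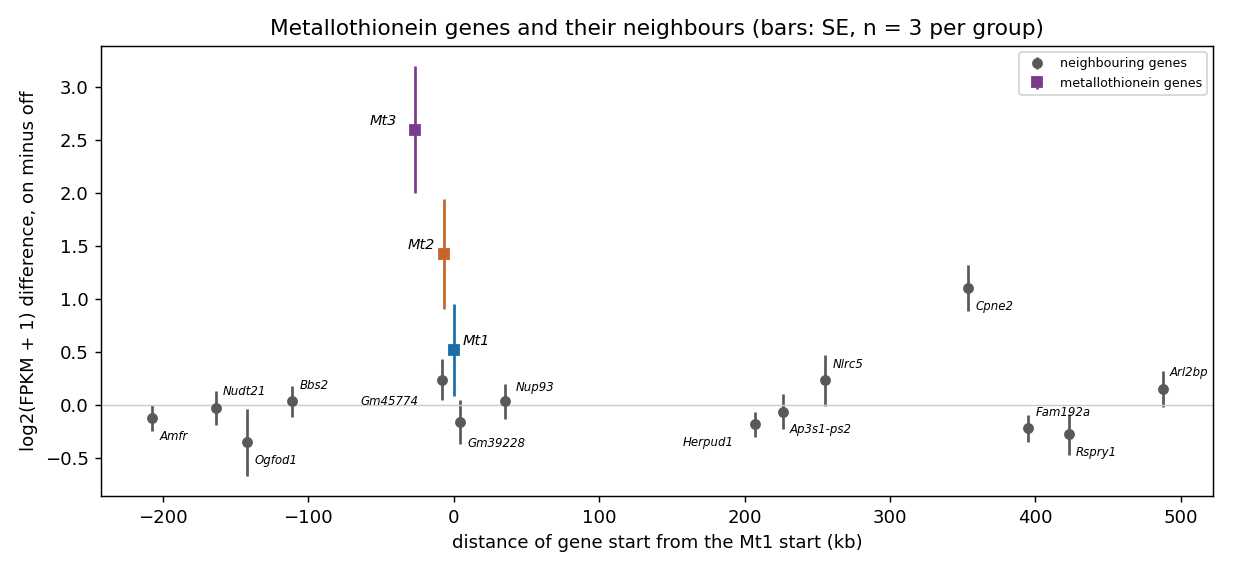
Log2(FPKM + 1) difference, acoustics on minus off, with SE bars (n = 3 per group), against the distance of each gene's start from the Mt1 start in kb. Mt3, Mt2 and Mt1 lie at 2.59, 1.42 and 0.51, and of the 14 neighbours Cpne2 alone lies above 1.

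Genes most like Mt1 across the 6 libraries were high in acoustics-on replicate 1 and otherwise level. The 5 with the highest Pearson r on the log2(FPKM + 1) scale, among 10803 genes, were Pdcd5, Eif1, Aarsd1, Nudc and Faim, at r 0.998 to 0.997. Pdcd5 was at 68.8, 70.5 and 68.6 FPKM without and 123.9, 66.9 and 68.8 FPKM with acoustics. In all, 373 genes (3.45%) reached r 0.95 with Mt1. The 5 most like Mt2 were Ccl4, Pum3, Gm7993, March9 and Nptxr, at r 0.998 to 0.996, and 265 genes (2.45%) reached r 0.95. Ccl4, a macrophage chemokine, was at 28.5, 37.3 and 34.5 FPKM without and 253.7, 40.0 and 98.2 FPKM with acoustics, the same graded order as Mt2. These values describe 6 libraries and carry no test.

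Markers of the cell line and of other cell types were checked beside these results. All 9 macrophage markers were tested, with 2 differences positive and 7 negative. Limma called 0 higher or lower, beside 1.5% and 0.574% of all genes tested. Adgre1, Csf1r, Cd68, Itgam, Lyz2 and Mertk were lower in every acoustics-on than in any acoustics-off library, as were 17.7% of all genes tested. Ptprc, Fcgr1 and Cd14 overlapped. Csf1r had means of 809.3 FPKM without and 457.4 FPKM with acoustics (limma adjusted p = 0.096). The summed level of the 9 markers was 27940 to 30182 FPKM without and 19782 to 26672 FPKM with acoustics, most of it Lyz2. Without Lyz2 it was 3988 to 4165 and 3425 to 3583 FPKM. Most of the markers were low in acoustics-on replicate 1, the library where Mt1, Mt2 and Mt3 were highest. Adgre1, Csf1r, Cd68, Itgam, Lyz2, Ptprc and Mertk were there below all acoustics-off values, and Fcgr1 was among them. Cd14 alone was above, at 1664 FPKM against 1010 to 1066 FPKM without acoustics. Adgre1 (F4/80) was at 115.2 FPKM in that library against 244.0 to 250.5 FPKM without acoustics. The part of these markers in the metallothionein values was not tested. No fibroblast, epithelial, endothelial, T cell, B cell or neuron marker passed the filter (0 of each), and their summed levels were at most 1.86 FPKM for fibroblasts and 0.84 FPKM for neurons. Of the 3 neuron markers 2 were in the table, and Rbfox3 was at most 0.044 FPKM in the 6 libraries. In bulk RNA, more cells that use a metallothionein and more transcript per cell cannot be told apart.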

How the data were processed

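RNA was measured in 3 acoustics-off and 3 acoustics-on libraries of RAW264.7 cells. The labels name both polyA RNA and an rRNA depletion kit. DESeq2 1.38.2, Salmon 1.4.0, STAR 2.7.11 and Trim Galore 0.6.8 are named, with the build GRCm38, per the submitters' processing notes. Settings and strand are not stated there. The authors deposited FPKM per gene and library, and a comparison table with the mean signal (mean of normalised counts), the log2 fold change, its score, p-value and adjusted p-value. Total counts per library are not in these tables, so depth is unknown.

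The members and lists were chosen with earlier results of these data known. FPKM were put on the log2(FPKM + 1) scale (pseudocount 1), and genes with at least 0.5 FPKM in at least 3 libraries were fitted with limma 3.58.1 (R 4.3.3, trended robust prior, Benjamini-Hochberg adjusted p under 0.05). The fit was tested on simulated data. Named genes were the 5 genes, listed genes that passed, 7 listed genes whatever their result, and the 5 genes most like Mt1 and Mt2. Pgf, S100a8, Cpne2, Nup93, Bbs2, Gm45774, Adgre1, Cd14 and Lyz2 were named after their values were seen. So were the other macrophage markers Csf1r, Cd68, Itgam, Mertk, Ptprc and Fcgr1. Stat3, Socs3 and the other genes named from the glucocorticoid and STAT3 lists were also named then. Alternatives changed the pseudocount, scaling, filter, prior, replicate block, length and GC correction (loess span 0.5) and the libraries included. Corrected levels without acoustics-on replicate 1, and with transcript length implied by the deposited tables, were added after seeing the data. The labels do not say that same-numbered libraries share a culture, so numbers were not treated as pairs.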

Additional observations from a re-analysis of the deposited data

How the results depend on the processing

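The differences of Mt2, Mt3 and Slc30a1 were positive under every alternative run. With 1 library left out, they ranged from 0.84 to 2.00 for Mt2, 1.95 to 3.29 for Mt3, 0.21 to 0.35 for Slc30a1, -0.04 to 0.83 for Mt1 and -0.30 to 0.16 for Mtf1. Mt1 turned negative only without acoustics-on replicate 1 (-0.17 with the correction as well). Mt3 was at 3.84 with a pseudocount of 0.1 and at 4.53 in the authors' deposited table (the cause of the second shift was not tested). Slc30a1 was at 0.46 with the length and GC correction, at 0.46 with the replicate block added to it and at 0.56 with implied lengths. Mtf1 was at 0.20 with the correction, at 0.26 with it and without acoustics-on replicate 1, and at -0.08 with implied lengths.

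Over all genes, 175 were higher and 67 lower. The counts were 307 and 347 with the length and GC correction, 394 and 421 with implied lengths, 666 and 780 with the correction and without acoustics-on replicate 1, 116 and 34 without the filter, and 737 and 361 in the authors' deposited table. With 1 library left out they ranged from 14 to 554 higher and from 5 to 359 lower. Both top values came without acoustics-on replicate 1. Leaving out acoustics-off replicate 1, 2 or 3 or acoustics-on replicate 3 gave 18, 14, 20 and 63 higher and 14, 5, 9 and 15 lower, and leaving out acoustics-on replicate 2 gave 154 lower. All 8 lists, heat shock, glucocorticoid and STAT3 lists included, hold 59 genes, of which 47 were tested. Of the 47, 3 were higher (Lcn2 among them) and 0 lower, beside 1.5% and 0.574% of all genes tested. These became 3 and 2 with the correction, 4 and 2 with implied lengths, 7 and 4 with the correction and without acoustics-on replicate 1, 0 and 0 without the filter, 5 and 3 in the authors' deposited table, and 0 to 6 higher and 0 to 1 lower with 1 library left out. The cause of these shifts was not tested. In the authors' deposited table the shares over all genes were 5.08% higher and 2.49% lower. Where Lcn2, S100a8 or Pgf are among the listed genes counted as higher, they could only differ upwards.

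With the replicate number as a block, 133 genes were higher and 46 lower, and 4 listed genes were higher. With the replicate block and the correction together, 71 were higher and 34 lower, and 1 listed gene was higher, Hmox1. Same-numbered libraries deviated from their group means with r of -0.07, -0.02 and -0.0039. These values gave no sign of pairing, but with 3 libraries a group they cannot exclude it.

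The limit for Mt3 is its 17.5 reads without acoustics. With 3 libraries a group, the acoustics-on libraries had the larger SD for every member. The SE of each member also draws on limma's variance prior over all genes.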

Other observations

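Genes known to respond to glucocorticoids or to STAT3 were described as further lists. Of 6 glucocorticoid-responsive genes, 5 were tested, and 0 were called higher or lower by limma. At an unadjusted p under 0.05 there were 0 higher and 3 lower, where 10.5% and 9.16% of all genes were, and the authors' deposited table called 0 higher and 1 lower, Sgk1, where 5.08% and 2.49% of all genes were. Their median log2 difference was -0.31, beside -0.03 for all genes tested. All 6 STAT3-responsive genes were tested, and 0 were called higher or lower by limma, with 0 higher and 2 lower at an unadjusted p under 0.05, beside the same shares. The authors' deposited table called 0 higher and 2 lower, Il4ra and Pim1, and the median log2 difference was -0.38. A positive difference was seen for 0 of the 5 and 0 of the 6 tested genes, and for 47.0% of all genes tested. Acoustics on was below off without overlap for 3 of the 5 and 3 of the 6, and for 17.7% of all genes tested. Stat3 and Socs3 were low mainly in acoustics-on replicate 1, at -0.98 and -1.20 in log2 from the acoustics-off mean, against 0.0036 and 0.13 in replicate 3. Other listed genes were low in replicate 3 too. Tsc22d3, Klf9, Sgk1, Bcl3, Il4ra, Pim1 and Junb were there at -0.81 (Tsc22d3) to -0.24 (Klf9), while Fkbp5 (0.10) and Per1 (0.05) were above 0. In acoustics-on replicate 1 genes over 5000 bases had a median of -0.57. The longest transcript has 6042 bases for Stat3 but 2552 for Socs3. The part of that library and of length in these lists was not tested.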
